A study of Mus musculus with 2 samples.

Results

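Aminoacyl-tRNA synthetases join each amino acid to its own tRNA, which lets the ribosome read codons as protein sequence. Separate nuclear genes serve the cytosol and the mitochondrion for most amino acids, and the mitochondrial enzymes, whose symbols end in 2, are imported to translate the few proteins encoded by mitochondrial DNA. Several cytosolic synthetase genes are known targets of ATF4, a transcription factor induced when amino acids run short or when the endoplasmic reticulum is stressed. The genes described here were taken from the count table by symbol, as cytosolic and mitochondrial synthetases, by a rule that uses no measured value. The family itself was chosen with earlier results of these data known. Its genes are 36 of the table's 46095 entries, 20 cytosolic and 16 mitochondrial. All 36 were counted in both libraries, and each averaged 5 or more CPM (counts per 1000000 after scaling) over them.

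RNA sequencing was done on mouse acute myeloid leukaemia cells, called leukaemia-initiating by the submitters, which were sorted from bone marrow for surface Mac1 and KIT. There was 1 library labelled P2X1-KO, from cells whose genotype field gives a knockout of P2x1 (gene P2rx1, an ATP-gated cation channel), and 1 library labelled WT. Both come from C57BL/6 mice with a stated age of 8 weeks. The protocol text also carries the names P2X1-Scr and P2X1-KD beside the groups. The oncogene or model that drives the leukaemia, and whether animals were pooled, are details not stated by the labels. With 1 library a group no difference below has a replicate check and no p-value was computed. Intervals are exact 95% intervals that cover counting error only.

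The library labelled P2X1-KO held 9447894 counts and the library labelled WT held 14658620. P2rx1 had 45 counts (5.07 CPM) in the library labelled P2X1-KO and 27 counts (1.73 CPM) in the library labelled WT, 2.93-fold higher (1.78 to 4.90), so the targeted transcript goes against the label, and every direction below is one between labelled libraries. The sort markers were detected in both, Itgam at 504 CPM against 307 CPM and Kit at 19.9 CPM against 13.3 CPM. Markers of other cells also differed. The 5 markers of eosinophils, mast cells and basophils summed to 172 CPM in the library labelled P2X1-KO and 34.9 CPM in the library labelled WT, and the 5 macrophage markers to 193 CPM and 38.2 CPM, with Mrc1 at 0 in the library labelled P2X1-KO, and in either list 4 of 5 markers were 2-fold higher or more there. The 5 stromal markers summed to 203 CPM and 0.962 CPM, with Dcn and Lum at 0 in both and Col1a2 and Col3a1 at 0 in the library labelled WT, and the 3 detected markers stood 2-fold higher or more. The 5 neutrophil-lineage markers, none of them at 0, summed to 7613 CPM and 3562 CPM, with 2 of 5 beyond 2-fold higher but Mpo 1.88-fold lower. In the eosinophil, mast cell and basophil list Mcpt8 was 1.48-fold lower. The intervals of Prg2 and Cpa3 lay above no change, but those of Epx (5 counts against 1) and Ms4a2 (8 counts against 4) held it. T cell markers summed to 0.901 CPM, all from Cd3e (8 counts against 0), and to 0.192 CPM in the library labelled WT, with Cd3d and Cd2 at 0 in the library labelled P2X1-KO alone and Cd3g and Trac at 0 in both. Erythroid markers summed to 2.14 CPM and 0.962 CPM, with Hbb-bt at 0 in both, Hba-a2 at 0 counts against 1 and Klf1 at 0 counts against 9, and B cell markers to 49.5 CPM and 16.5 CPM, with Ms4a1 and Pax5 at 0 in both. The part of other cells in the synthetase values was not tested, and in bulk RNA fewer cells of a type and less RNA per cell cannot be told apart.

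Most synthetase transcripts stood slightly lower in the library labelled P2X1-KO, and few differed by much. Of the 36 genes, 32 (88.9%) were lower there by some amount, beside 54.2% of the 10482 genes that averaged 5 CPM or more. The whole interval lay below no change for 24 of 36, beside 43.7% of all genes, and above it for 2 of 36, beside 35.9%. That share depends on depth, since genes with more counts have narrower intervals. Counts at a fixed fold were near the background for lower levels. A 2-fold lower level was reached by 3 of 36 (8.33%), beside 10.6% of all genes, and a 1.5-fold lower level by 10 of 36 (27.8%), beside 24.2%. In the other direction 0 of 36 reached 2-fold, beside 12.1% of all genes, and 0 of 36 reached 1.5-fold, beside 21.9%. With total-count scaling 7 of 36 were 2-fold lower or more, beside 15.3% of all genes, and with the 20 most abundant genes left out of the total again 7 of 36, beside 16.2%. Differences on the log2 scale are those of log2(CPM + 0.5), library labelled P2X1-KO minus library labelled WT. Their median was -0.32 over the 36 genes and -0.06 over all genes averaging 1 CPM or more. Scaling to total counts in place of TMM, the edgeR scaling used throughout, moved the median of all genes to -0.23 and left all 36 synthetases lower, whereas upper-quartile scaling left 30 of 36 lower.

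**Figure D1:**
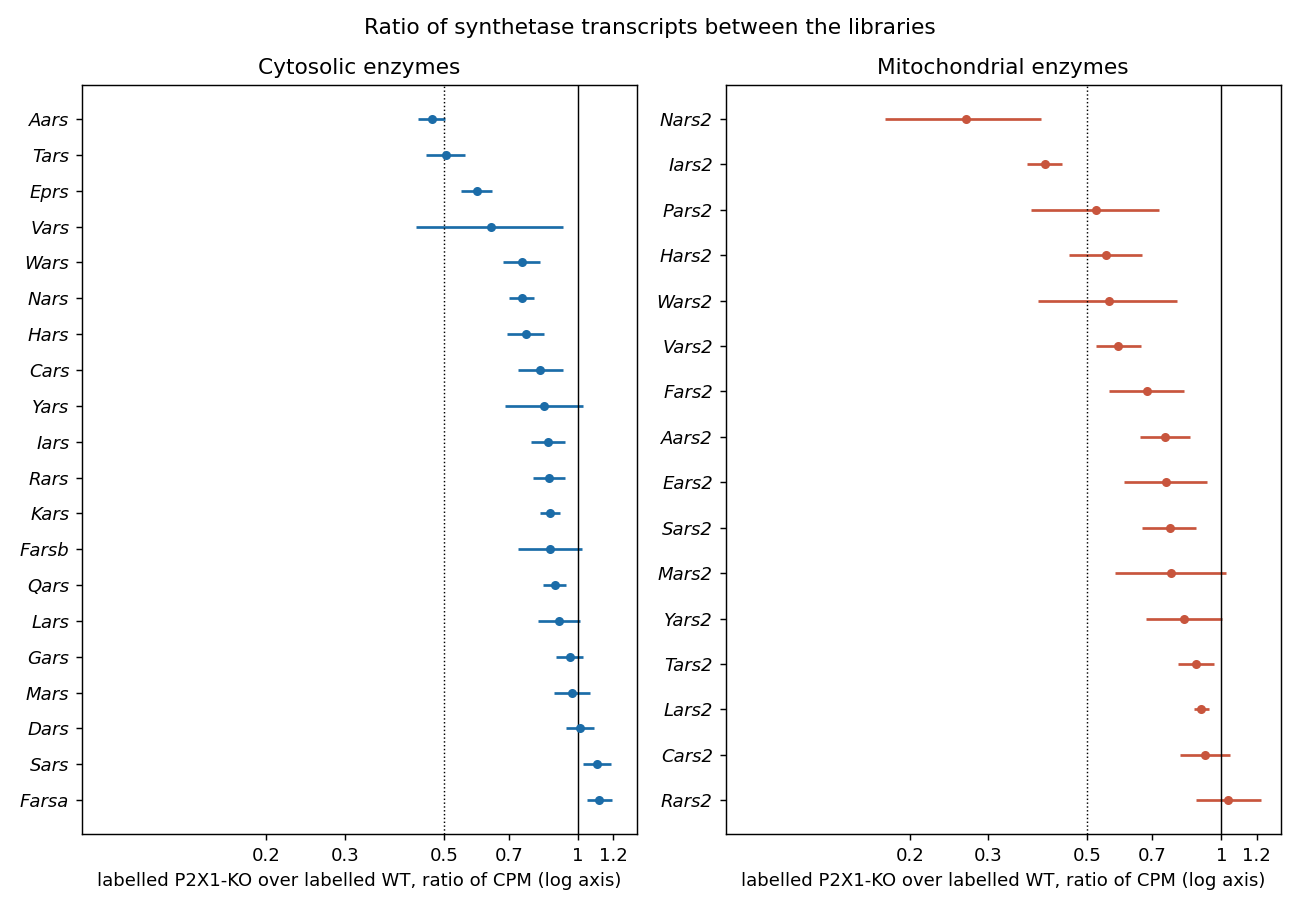
Ratio of CPM in the library labelled P2X1-KO over the library labelled WT for the 20 cytosolic (left) and 16 mitochondrial (right) synthetases, on a log axis. Points are the ratios of 1 library to 1 library, bars the exact 95% counting intervals, the solid line no change and the dotted line 2-fold lower. Aars, Nars2 and Iars2 lie left of the dotted line, and Farsa and Sars are the 2 genes whose whole bar lies right of the solid line.

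Among the cytosolic enzymes the transcript for alanine stood lowest relative to the library labelled WT, followed by those for threonine and for glutamate and proline. Aars, encoding alanyl-tRNA synthetase, spans bases 111033144 to 111057664 of chromosome 8, plus strand (mm10, as are all positions below). It had 1002 counts (113 CPM) in the library labelled P2X1-KO and 3741 counts (239.9 CPM) in the library labelled WT, which is 2.13-fold lower (1.98 to 2.28). Of the exon bases of Aars, 14.3% are shared with Exosc6 on the same strand. Exosc6, an exosome subunit gene, had 42.9 CPM against 33.9 CPM, so it stood higher where Aars stood lower.

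Tars, encoding threonyl-tRNA synthetase (chromosome 15, 11382301 to 11399665, minus strand), lay just outside the 2-fold limit. It had 508 counts (57.2 CPM) in the library labelled P2X1-KO and 1766 counts (113 CPM) in the library labelled WT, 1.98-fold lower (1.79 to 2.19). Its exons overlap no other annotated gene. Eprs encodes a fused enzyme that charges both glutamate and proline tRNAs (chromosome 1, 185363044 to 185428360, plus strand). Eprs had 804 counts (90.5 CPM) against 2383 counts (153 CPM), 1.69-fold lower (1.56 to 1.83). Vars, the valine enzyme, was sparsely counted, with 40 counts (4.50 CPM) in the library labelled P2X1-KO and 110 counts (7.06 CPM) in the library labelled WT. Its ratio of 1.57-fold lower therefore has a wide interval (1.08 to 2.31).

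A middle group of cytosolic enzymes stood between 1.34-fold and 1.13-fold lower, with intervals that leave out no change. Wars, for tryptophan, had 66.5 CPM in the library labelled P2X1-KO and 89.0 CPM in the library labelled WT. Nars, for asparagine, had 154 CPM against 205 CPM, and Hars, for histidine, 69.6 CPM against 91.1 CPM. These were 1.34-fold, 1.34-fold and 1.31-fold lower. Hars shares 7.97% of its exon bases with Hars2 on the opposite strand, since the genes are divergent neighbours. Cars, for cysteine, was 1.21-fold lower at 47.7 CPM against 57.9 CPM. Iars, for isoleucine, was 1.17-fold lower (85.9 CPM against 100.2 CPM) and Rars, for arginine, 1.16-fold lower (95.7 CPM against 111 CPM). Kars, the lysine enzyme, whose gene also gives rise to a mitochondrial form, was 1.16-fold lower at 228 CPM against 263 CPM, and Qars, for glutamine, 1.13-fold lower at 181 CPM against 204 CPM. All of these steps are small beside those of Aars and Tars.

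For the remaining cytosolic transcripts the interval held no change or lay above it. The intervals of Yars (tyrosine), Farsb (the beta subunit of the phenylalanine enzyme), Lars (leucine), Gars (glycine, shared with mitochondria), Mars (methionine) and Dars (aspartate) all held no change. The values of Yars and Farsb, 1.19-fold and 1.15-fold lower, were about as low as those of Iars and Kars but rest on fewer counts, while Dars had 135 CPM against 133 CPM. Farsa, the alpha subunit that pairs with Farsb, had 1528 counts (172 CPM) in the library labelled P2X1-KO and 2402 counts (154 CPM) in the library labelled WT, 1.12-fold higher (1.05 to 1.19). Sars, for serine, had 1259 counts (142 CPM) against 2001 counts (128 CPM), 1.10-fold higher (1.03 to 1.19). Both Farsa and Sars turned to slightly lower under total-count scaling, at ratios of 0.987 and 0.976, so their direction rests on the scaling.

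Promoters of Aars and Tars share a motif with 3 other cytosolic enzymes, and 30 bases around 1 copy of each gene are shown because ATF4 with its partners of the C/EBP family is known to bind such elements. RefSeq windows from 250 bases before to 50 after each start (GRCm38.p6, the assembly of mm10) could be matched by symbol to 26 of the 36 genes, 12 cytosolic and 14 mitochondrial. The letters TGATGNAA were searched on both strands. They occur in 5 of the 12 cytosolic windows and in 0 of the 14 mitochondrial ones, beside 4.51% of 27025 genes with a window. Capitals mark the motif as read on the gene's strand, so TTGCATCA and TTTCATCA are copies on the opposite strand.
Aars (chr8:111033840-111033869, plus strand): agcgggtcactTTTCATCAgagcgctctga
Tars (chr15:11399655-11399684, minus strand): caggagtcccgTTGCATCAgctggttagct
Iars (chr13:49682126-49682155, plus strand): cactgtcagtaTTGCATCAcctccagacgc
Gars (chr6:55037960-55037989, plus strand): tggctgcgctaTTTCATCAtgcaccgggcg
Yars (chr4:129189895-129189924, plus strand): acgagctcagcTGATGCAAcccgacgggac
The Gars copy begins 30 bases and the Tars copy 15 bases before the RefSeq start, while the copies shown for Aars, Iars and Yars lie just after it. For Aars that start lies inside the gene, downstream of the GENCODE start given above. The same holds, by fewer bases, for Yars, Iars and Tars. The 5 genes with the motif differed in size, since Aars and Tars had ratios of 0.470 and 0.505 but Yars, Iars and Gars had 0.841, 0.857 and 0.958. CACGTG, the E-box that MYC is known to bind, occurs in the windows of Aars, Tars, Iars, Farsb and Ears2, which is 5 of 26, beside 8.09% of all genes, and does not overlap the other motif. A match is a description of letters, not of binding.

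The mitochondrial enzymes stood further down than the cytosolic ones, with a median difference of -0.41 over 16 genes against -0.22 over 20. Nars2, encoding mitochondrial asparaginyl-tRNA synthetase (chromosome 7, 96951505 to 97064758, plus strand), had 30 counts (3.38 CPM) in the library labelled P2X1-KO and 197 counts (12.6 CPM) in the library labelled WT. This 3.74-fold lower value (2.54 to 5.69) was the largest difference of the 36 genes. Iars2, the isoleucine enzyme (chromosome 1, 185284726 to 185329396, minus strand), had 594 counts (66.9 CPM) against 2594 counts (166 CPM), 2.49-fold lower (2.27 to 2.72). Nars2 and Iars2 were the 2 mitochondrial genes beyond 2-fold lower, although the interval of Pars2, given below, overlaps both of theirs. Of the exon bases of Iars2, 22.9% lie opposite to Rab3gap2, which was nearly level at 105 CPM against 111 CPM, and 4.08% of those of Nars2 lie opposite to a non-coding gene. Without genes that overlap another gene, which removes Aars, Nars2 and Iars2, 0 synthetases reached 2-fold lower, beside 10.7% of all genes without such an overlap.

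A second tier of mitochondrial transcripts stood between 1.91-fold and 1.70-fold lower. Pars2, for proline, had 49 counts (5.52 CPM) in the library labelled P2X1-KO and 164 counts (10.5 CPM) in the library labelled WT, 1.91-fold lower (1.38 to 2.68). Hars2 (histidine) was 1.82-fold lower at 16.7 CPM against 30.3 CPM, Wars2 (tryptophan) 1.79-fold lower at 4.84 CPM against 8.66 CPM, and Vars2 (valine) 1.70-fold lower at 43.6 CPM against 74.2 CPM. Pars2 and Wars2 are among the least counted members, so their sizes are poorly fixed. Fars2 (phenylalanine) was 1.47-fold lower (1.21 to 1.79), Aars2 (alanine) 1.34-fold, Ears2 (glutamate) 1.33-fold, Sars2 (serine) 1.31-fold and Tars2 (threonine) 1.14-fold lower, all with intervals below no change. The intervals of Mars2 (methionine), Yars2 (tyrosine), Cars2 (cysteine) and Rars2 (arginine) held no change, and Rars2 was the 1 mitochondrial gene with the higher value in the library labelled P2X1-KO, at 25.7 CPM against 24.8 CPM.

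Lars2, for mitochondrial leucine tRNA, dominated the counts of its group. It had 3974 counts (447 CPM) in the library labelled P2X1-KO and 7744 counts (497 CPM) in the library labelled WT, 1.11-fold lower (1.07 to 1.15). A stretch of 72 bases of its transcript matches the non-coding gene Gm15564 at 98.6% identity, and some reads from that stretch may not be told apart. The 16 mitochondrial genes summed to 857 CPM against 1123 CPM, 1.31-fold lower (1.28 to 1.35). Without Lars2 the summed ratio was 0.654 rather than 0.763. The 20 cytosolic genes summed to 1953 CPM against 2383 CPM, 1.22-fold lower (1.20 to 1.24).

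Levels between genes were compared as CPM per kilobase of the longest protein-coding transcript. In both libraries Lars2 was highest, at 115 CPM per kb in the library labelled P2X1-KO and 128 CPM per kb in the library labelled WT, followed by Kars (104 and 120.1) and Farsa (94.2 and 84.4). Mars2 was lowest in both, at 0.718 and 0.931 CPM per kb, but its annotated transcript is 11294 bases long, which lowers this value. Next lowest in the library labelled P2X1-KO were Nars2, Vars and Wars2, at 0.894, 1.09 and 1.10 CPM per kb, against 3.34, 1.71 and 1.96 CPM per kb in the library labelled WT. The median level was 25.1 CPM per kb over cytosolic and 8.82 over mitochondrial genes in the library labelled P2X1-KO, and 33.7 and 12.3 CPM per kb in the library labelled WT. Across the 36 genes the log2 ratio rose with log2 of the mean level per kb, with Pearson's r and Spearman's rho both 0.48. The part of level in the lower mitochondrial median was not tested. Along the order of levels, 28 of 35 neighbouring pairs overlapped in their counting intervals in the library labelled P2X1-KO and 22 of 35 in the library labelled WT. Most neighbours in the order cannot be ranked at this depth.

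**Figure D2:**
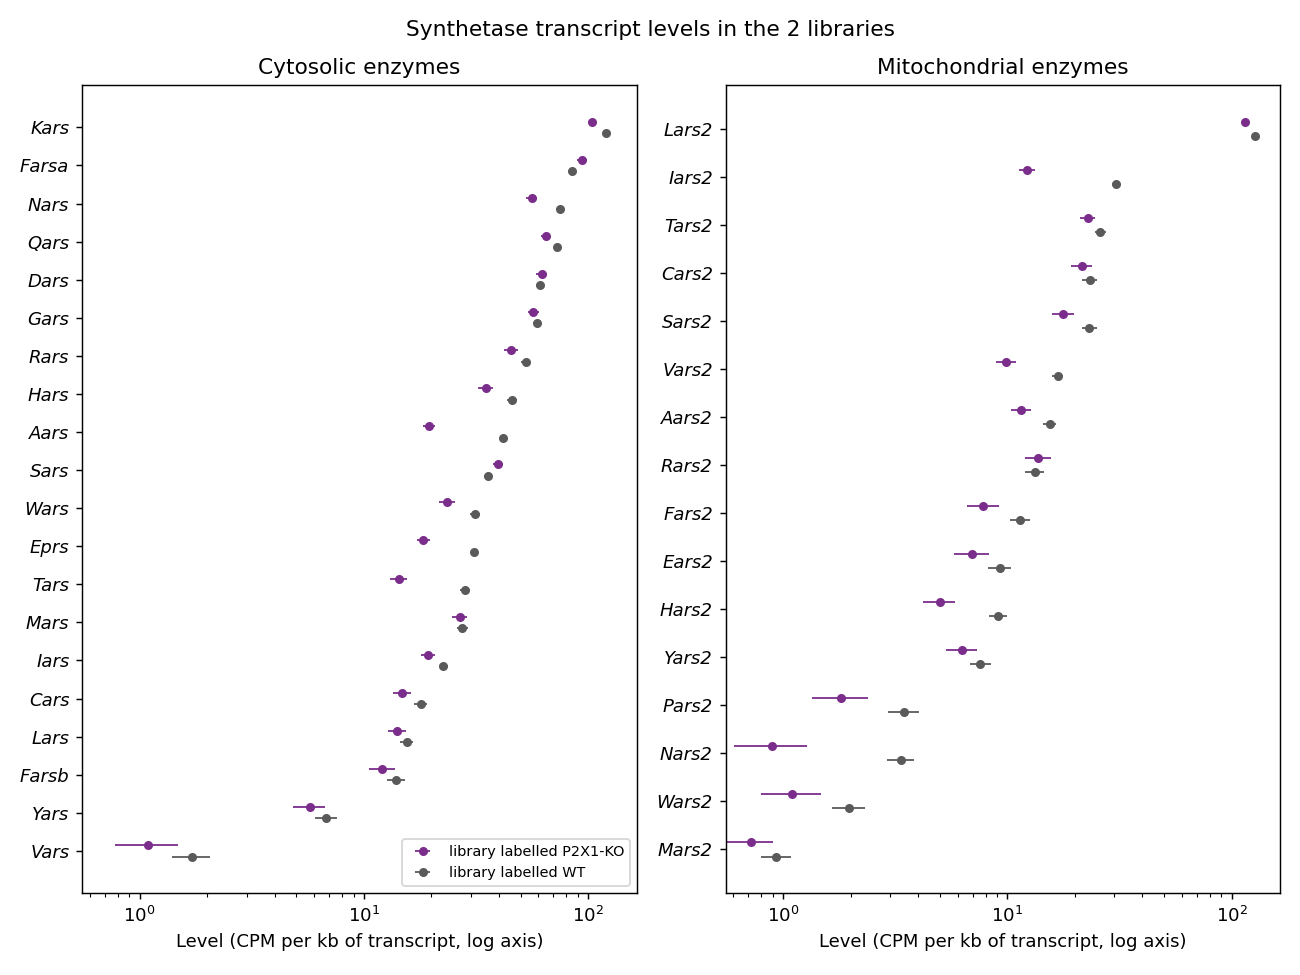
Level of each synthetase transcript in CPM per kb of transcript (log axis), ordered by the library labelled WT, with the library labelled P2X1-KO in purple above and the library labelled WT in grey below in each row. Points are single libraries and bars exact 95% Poisson intervals. Lars2 and Kars stand at the top of their panels in both libraries, and the gap between the points is widest for Nars2, Iars2, Aars and Tars.

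Cytosolic and mitochondrial genes whose symbols match apart from the final 2 gave 13 pairs, each for 1 amino acid. Both genes were lower in the library labelled P2X1-KO in 11 of these pairs. Phenylalanine, glutamate and proline, whose cytosolic genes Farsa, Farsb and Eprs do not match Fars2, Ears2 and Pars2 in this way, were left out. The mitochondrial enzyme was the further down in 9 of the 13. Intervals of the pair did not overlap for 6 amino acids, 4 with the mitochondrial enzyme further down (histidine, isoleucine, asparagine and serine) and 2 with the cytosolic one further down (alanine and threonine). Asparagine showed the widest gap, with ratios of 0.267 for Nars2 and 0.748 for Nars. For alanine the ratios were 0.747 for Aars2 and 0.470 for Aars, and for threonine 0.877 for Tars2 and 0.505 for Tars. For 0 of 13 amino acids did both enzymes reach 2-fold lower.

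**Figure D3:**
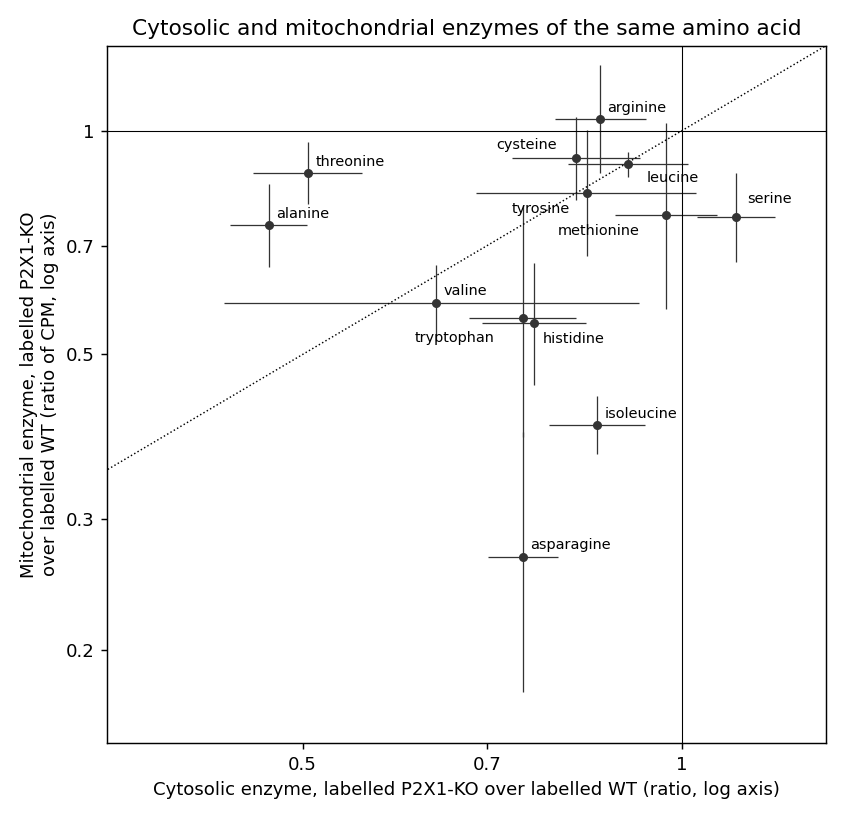
Ratio of the library labelled P2X1-KO over the library labelled WT for the mitochondrial enzyme (vertical, log axis) against the cytosolic enzyme (horizontal, log axis). The 13 amino acids shown are those whose enzymes were paired by symbol. Bars are exact 95% counting intervals, solid lines no change and the dotted line equal ratios. Alanine and threonine lie above the dotted line, and asparagine, isoleucine, histidine and serine below it.

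Of the cytosolic enzymes, 8 bind together in the multisynthetase complex, and these stood closer to level than the 12 that act outside it. The complex members (Dars, Eprs, Iars, Kars, Lars, Mars, Qars and Rars) had a median difference of -0.19 and the others -0.33, against -0.06 over all genes. Of these 8, Eprs was the 1 gene beyond 1.5-fold lower. After removal of the median difference at each transcript length and GC content the medians were -0.0091 and -0.20, with 4 of 8 and 11 of 12 below the level of all genes. Of the 3 scaffold proteins of the complex, 2 had an interval below no change and Aimp2 one that held it. Aimp1 had 85.9 CPM in the library labelled P2X1-KO and 96.2 CPM in the library labelled WT, 1.12-fold lower (1.03 to 1.22), Aimp2 52.5 CPM against 48.9 CPM, and Eef1e1, also called AIMP3, 23.4 CPM against 30.1 CPM, 1.28-fold lower (1.09 to 1.52). Grouped by the fold of their catalytic domain, the 19 class I chains had a median of -0.27 and the 17 class II chains -0.39. The fused Eprs, whose proline part is of class II, was counted in class I only.

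Transcript length moved with these differences across the whole table. In 20 bins of length the median difference of all genes was 0.72 in the shortest and -0.44 in the longest bin. Among the 36 synthetases longer transcripts also stood lower, with Pearson's r of -0.45 and Spearman's rho of -0.51 between log2 ratio and log2 length, given as a description over genes that share the same pair of libraries. Relative to genes of like length and GC content, 27 of 36 synthetases lay below the level of all genes and the median was -0.20. Nars2 stood at -1.42, Iars2 at -0.81, Pars2 at -0.79, Aars at -0.71 and Tars at -0.69 on that scale. Nars2 was then the 1 synthetase of 36 beyond 2-fold lower, beside 10.3% of all genes. The length used was that of the longest protein-coding transcript. For Iars2, 2034 of its 5471 bases are shared with Rab3gap2, and for Aars, 1326 of 5750 with Exosc6. Correction by a shorter transcript of these genes was not tested. After the correction the mitochondrial median was -0.47 and the cytosolic median -0.14. On that scale 6 genes that were lower before, Lars, Mars2, Iars, Mars, Lars2 and Tars2, lay above the level of all genes, at 0.15, 0.13, 0.13, 0.081, 0.073 and 0.053, and Farsa lay slightly below it.

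**Figure D4:**
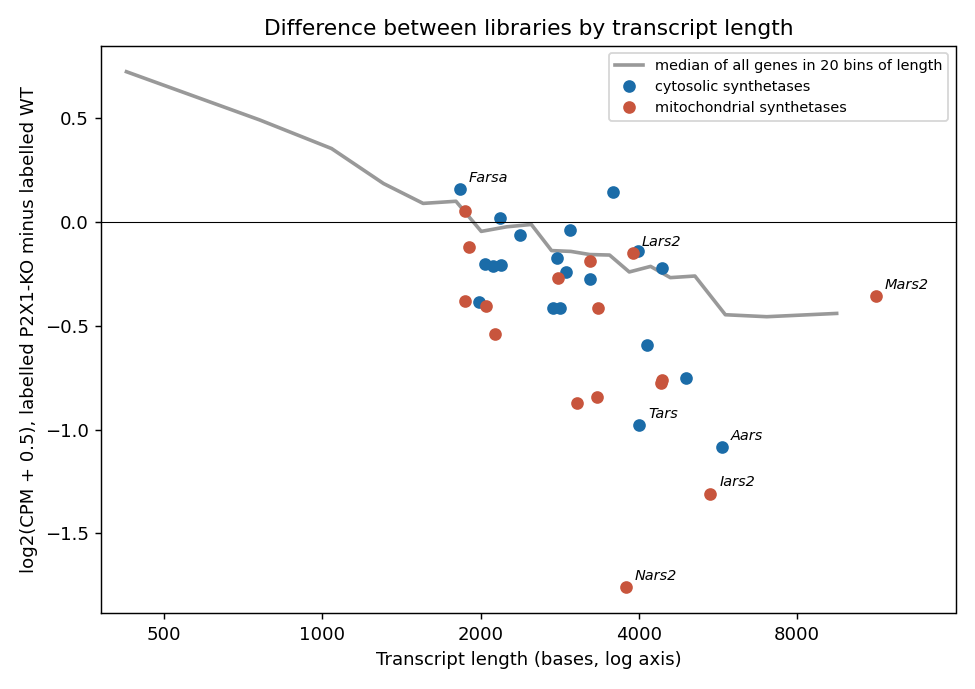
Difference in log2(CPM + 0.5), library labelled P2X1-KO minus library labelled WT, against transcript length in bases (log axis). Blue points are cytosolic and red points mitochondrial synthetases, and the grey line is the median of all genes in 20 bins of length, which runs from 0.72 to -0.44. Nars2, Iars2, Aars and Tars lie well below the line, whereas Mars2 and Lars2 lie near it.

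Partners that act on mitochondrial tRNA and translation had a lower median difference than the synthetases, though none stood as low as Nars2. Of 9 measured, 2 reached 2-fold lower and 0 reached 2-fold higher, beside 10.6% and 12.1% of all genes, and the median difference was -0.76. Neither these values nor those of the tRNA maturation and eIF2 genes below were corrected for transcript length. Gfm1, a mitochondrial elongation factor gene, had 220 counts (24.8 CPM) against 1244 counts (79.8 CPM), 3.22-fold lower (2.79 to 3.74). Trnt1, which adds the CCA end that synthetases charge, was 2.24-fold lower (1.94 to 2.59) at 26.7 CPM against 59.7 CPM. The amidotransferase subunits Gatc and Gatb, which help make mitochondrial glutaminyl-tRNA, were near level, at 37.3 CPM against 32.6 CPM and at 24.2 CPM against 22.8 CPM. Qrsl1, encoding the A subunit of the same enzyme, was 1.81-fold lower at 16.1 CPM against 29.1 CPM, with an interval below no change. The subunits of this enzyme therefore did not share a direction.

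For maturation and export of tRNA, 4 of 30 genes reached 2-fold lower, near the 10.6% of all genes, and 0 reached 2-fold higher, beside 12.1%, with a median of -0.14. Xpot, the export receptor of tRNA, had 492 counts (55.4 CPM) in the library labelled P2X1-KO and 2782 counts (178 CPM) in the library labelled WT, 3.22-fold lower (2.93 to 3.55). Trmt6, part of a tRNA methyltransferase, was 2.27-fold lower (2.01 to 2.56). Tsen34 and Tsen54, subunits of the splicing endonuclease of tRNA, stood 1.98-fold and 1.55-fold higher. Enzymes that edit mischarged tRNA or recycle peptidyl-tRNA had a median of 0.26 over 7 genes, with Ptrh2 at 1.74-fold and Aarsd1 at 1.21-fold higher, but Dtd1 was 1.71-fold and Dtd2 1.25-fold lower.

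Genes known to respond to ATF4 and amino acid shortage showed no common direction. Of 23 that averaged 5 CPM or more, 4 reached 2-fold higher and 3 reached 2-fold lower, beside 12.1% and 10.6% of all genes, and the median was 0.07 against -0.06 over all genes. Atf4 itself had 3469 counts (391 CPM) in the library labelled P2X1-KO and 7280 counts (467 CPM) in the library labelled WT, 1.20-fold lower (1.15 to 1.25). Asns, for asparagine synthetase and a classical ATF4 target, was 1.89-fold lower (1.67 to 2.15) at 35.4 CPM against 66.9 CPM. The amino acid carrier genes Slc7a1 and Slc7a5 were 3.27-fold and 2.60-fold lower. In the other direction, Cebpb, a C/EBP family member abundant in myeloid cells, was 3.04-fold higher (2.88 to 3.22) and the stress gene Nupr1 29.5-fold higher, with 101 counts against 6. Ddit3, encoding CHOP, had 18.9 CPM against 24.2 CPM and overlaps Mars on the opposite strand. Chac1 had 23 counts against 17, which after scaling is 2.37-fold higher (1.21 to 4.74). Trib3 had 0 counts against 12, with a counting interval that begins at 1.58-fold lower.

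The kinase that reads uncharged tRNA was among the lower genes of the eIF2 pathway. Of 14 genes for eIF2 kinases, their partners and eIF2 factors, 3 reached 2-fold lower and 0 reached 2-fold higher, beside 10.6% and 12.1% of all genes, with a median of -0.53. Eif2ak4, encoding GCN2, the kinase activated by uncharged tRNA, had 248 counts (27.9 CPM) in the library labelled P2X1-KO and 1199 counts (76.9 CPM) in the library labelled WT, 2.75-fold lower (2.40 to 3.17). Impact, an inhibitor of GCN2 activation, was 2.60-fold lower (2.22 to 3.06). Eif2b4, a subunit of the eIF2 exchange factor, was 1.49-fold higher. The genes of its other subunits, Eif2b3, Eif2b1, Eif2b5 and Eif2b2, were 2.08-fold, 1.53-fold, 1.21-fold and 1.09-fold lower. Eif2ak1, encoding the haem-regulated kinase, was near level at 92.0 CPM against 86.6 CPM.

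**Figure D5:**
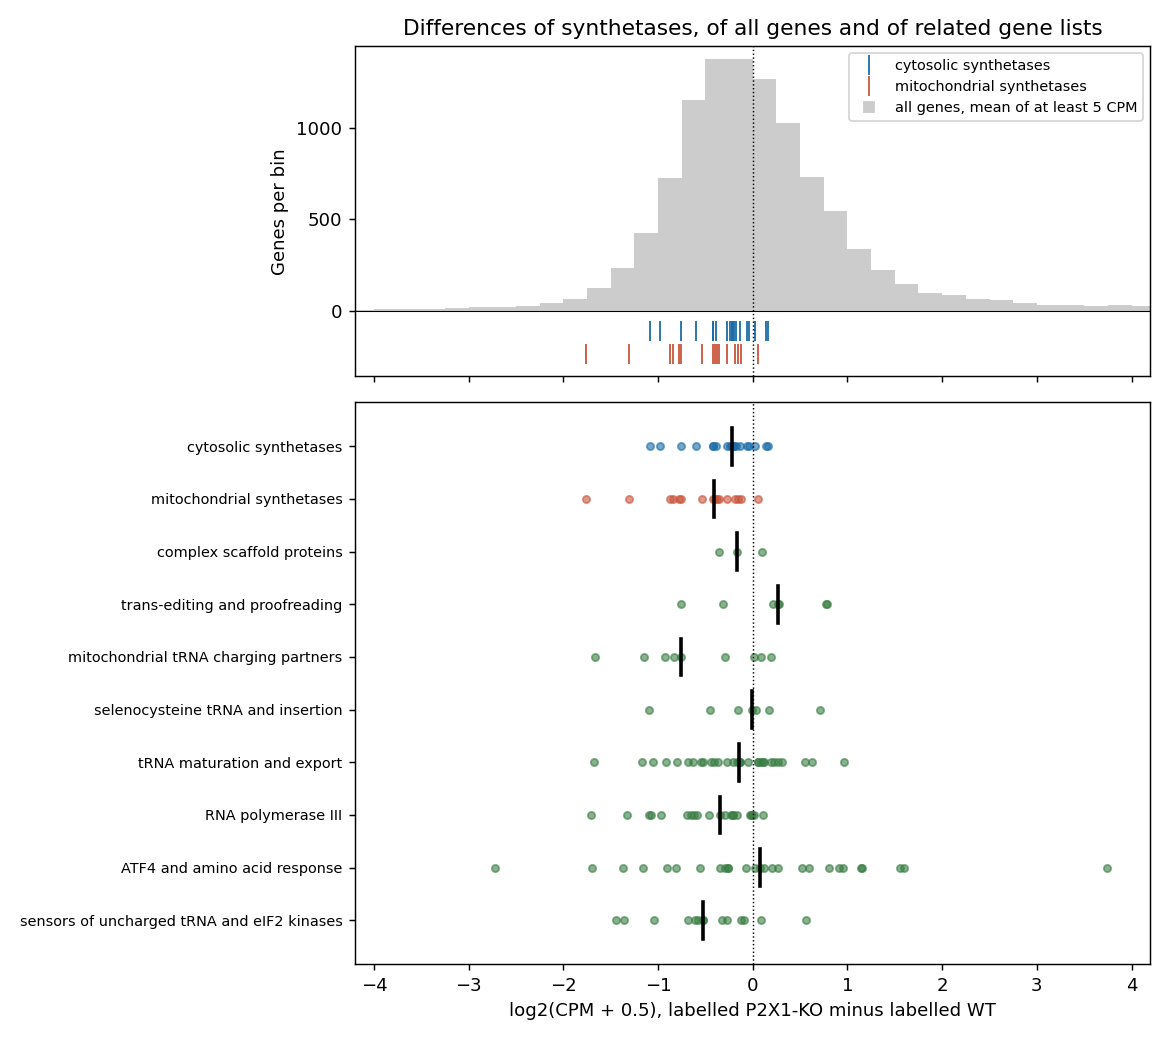
Upper panel, number of genes averaging 5 CPM or more in each bin of the difference in log2(CPM + 0.5), library labelled P2X1-KO minus library labelled WT (grey), with ticks for cytosolic (blue) and mitochondrial (red) synthetases. Lower panel, the same difference for each member of each gene list averaging 1 CPM or more, with a black bar at the median, which is -0.22 for cytosolic and -0.41 for mitochondrial synthetases and -0.76 for the mitochondrial charging partners.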

How the data were processed

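The authors deposited raw counts per gene symbol, whole numbers, with 1 column a library. HISAT2 2.0.4 and mm10 are the aligner and build named, per the submitters' processing notes. How reads were counted, with which annotation and strand setting, is not stated in the labels, so reads in overlapping genes cannot be assigned with certainty. Entries that carry calendar dates in place of symbols (27) held 0.110% of all counts under the label P2X1-KO and 0.147% under WT, and stayed in the totals.

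Counts were scaled by TMM (trimmed mean of M values) in edgeR 4.0.16 under R 4.3.3, to effective sizes of 8882591 (P2X1-KO) and 15591519 (WT). Folds are ratios of CPM without a pseudocount. Their exact 95% intervals are Clopper-Pearson intervals of the counts given their sum (scipy 1.17.1), and a level has an exact Poisson interval. The log2 difference, with a pseudocount of 0.5 CPM, understates low genes. Counts at a fold used genes at a mean of at least 5 CPM, list medians those at 1 CPM. The interval code was tested on simulated counts.

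GENCODE M21 gave positions, overlaps, lengths and GC content (same assembly as mm10), and length and GC were known for 92.6% of genes at a mean of at least 1 CPM. Similar copies were searched at 95% identity over at least 50 bases. The synthetases and all lists were chosen with earlier results of these data known. Named were all synthetases, set label, scaffold and ATF4 genes, and from each other list up to 2 genes per direction at a mean of at least 5 CPM by the interval bound nearest to no change. Genes that share exons with synthetases, Gm15564, Qrsl1, Eif2b1, Eif2b2, Eif2b3 and Eif2b5 were named after their values were seen. A further sequence window and a marker are not reported here.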

Additional observations from a re-analysis of the deposited data

How the results depend on the processing

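The lower medians of the cytosolic and mitochondrial lists kept their sign under each of the 4 other scalings, the other pseudocounts and minimum levels, the length and GC correction and the removal of overlapping genes. Compared with TMM, total-count scaling shifted log2 differences of all genes by -0.18 and total counts without the 20 most abundant genes by -0.20. Relative to the median of all genes the cytosolic median was -0.16 and the mitochondrial one -0.35 under all 4. Without those 20 genes in the total the cytosolic median was -0.41. The multisynthetase complex median was -0.37 and -0.39 under these scalings and -0.0091 after the correction. The summed cytosolic ratio was 0.724 with total counts, 0.716 without the most abundant genes and 0.868 with upper-quartile scaling, and the summed mitochondrial ratio was 0.674, 0.666 and 0.808, or 0.654 without Lars2. A 2-fold lower level was reached by 7 synthetases with total counts (15.3% of all genes) and 7 without the most abundant genes (16.2%), by 0 without genes that overlap another (10.7%) and by 1 after the correction (10.3%), and 10 reached 1.5-fold lower (24.2%). Farsa turned to a ratio of 0.987 with total counts, 0.975 without the most abundant genes and 0.989 after the correction, and Sars to 0.976 and 0.965 under those scalings. The corrected ratios of Lars, Mars2, Iars, Mars, Lars2 and Tars2 turned to 1.11, 1.10, 1.09, 1.06, 1.05 and 1.04. The correction of single genes and of the count, and the sums without Kars or Lars2, were chosen after seeing the data. No paired analysis was possible because each group has 1 library. The shallower library labelled P2X1-KO limits Nars2, Vars, Wars2 and Pars2 most, with 30 to 49 counts each.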

Other observations

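Genes that make tRNA also had a median below that of all genes in the library labelled P2X1-KO, without correction for transcript length. The part of length in this was not tested. Of 21 genes of RNA polymerase III, its initiation factors and its repressor Maf1, 4 reached 2-fold lower and 0 reached 2-fold higher, beside 10.6% and 12.1% of all genes, with a median of -0.35. Bdp1, a subunit of the initiation factor TFIIIB, had 105 counts (11.8 CPM) in the library labelled P2X1-KO and 619 counts (39.7 CPM) in the library labelled WT, 3.36-fold lower (2.73 to 4.17). Gtf3c4, of the factor TFIIIC that binds tRNA genes, was 2.56-fold lower (2.10 to 3.16). Gtf3c3 and Maf1 were near level, at 19.7 CPM against 18.2 CPM and at 111 CPM against 110.4 CPM.

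The route that charges selenocysteine tRNA, which starts from serine loaded by Sars, showed no common direction, with a median of -0.012 over 7 genes. Sepsecs, the enzyme that converts the bound serine, was 2.28-fold lower with 38 counts against 152, and Sephs2, which supplies selenophosphate, 1.37-fold lower at 125 CPM against 172 CPM. Trnau1ap, encoding a protein that binds this tRNA, was 1.65-fold higher (1.45 to 1.87), and Eefsec, the elongation factor gene of this tRNA, was near level.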
